A study of Mus musculus with 12 samples.

Results

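Expression of 10 genes that mark hair follicle stem and progenitor cells was followed in mouse skin lacking epidermal Pparg: Cd34, Lgr5, Lgr6, Lrig1, Sox9, Lhx2, Nfatc1, Tcf7l1, Tcf7l2 and Plet1. They were taken by gene symbol, and all 10 were among the 14533 genes of the deposited count table. Both groups were C57BL/6 mice with both Pparg alleles floxed. In the 6 Pparg-/-epi mice (4 females and 2 males, 8 to 13 weeks of age) a Cre transgene under the keratin 14 promoter was also present, and the 6 wildtype (WT) siblings (3 females and 3 males, 8 to 13 weeks) carried no Cre. These ages are those of the sample labels. The study's own run sheet gives other ages for some of the mice, the widest differences being for WT replicate 2 and Pparg-/-epi replicate 10. The study's methods state a younger age range for experimental mice than these labels do. Keratin 14 is made by basal keratinocytes of the interfollicular epidermis and of the hair follicle alike, so the promoter is not specific to stem cells. RNA came from untreated, non-lesional dorsal skin that was frozen and scraped down to the superficial dermal vessels, and each library was 1 mouse.

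A hair follicle is renewed from several pools of epithelial progenitors. The bulge, the stem cell niche of the lower permanent follicle, is marked by CD34 in mice, and its cells use the transcription factors SOX9, LHX2, NFATC1 and TCF7L1 (TCF3). LGR5 marks the lower bulge and the hair germ, and LGR6 and LRIG1 mark progenitors nearer the sebaceous gland and the isthmus, as does PLET1 (the MTS24 antigen). LGR5 and LGR6 are receptors for R-spondins, secreted proteins that strengthen WNT signaling, and TCF7L1 and TCF7L2 are DNA-binding partners of β-catenin in the same pathway.

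Library totals ranged from 10120840 to 18851255 counts. Levels are in CPM, counts brought to a common library size with edgeR's TMM factors. Altered means that the log2 fold change reached 0.6 in size and the adjusted p was under 0.05, by edgeR's quasi-likelihood test over all 14533 genes. Counts of Pparg itself did not separate the genotypes (log2 fold change -0.10 ± 0.71 SE, adjusted p = 0.949), and since they cover the whole gene, including exons that Cre leaves in place, they are no check of the deletion. Of 11 measured sebocyte genes, 7 were lower in Pparg-/-epi skin, and their summed level did not overlap between the groups (955 to 3193 CPM in WT, 471 to 583 CPM in Pparg-/-epi). WT replicate 2, a female of breeding number 222, had the highest WT level of 9 of the 10 genes. The share of all genes with their highest WT level in that mouse was not counted, so this is not read as particular to the 10. The 6 mice with breeding numbers up to 222 (2 WT and 4 Pparg-/-epi) had RNA integrity numbers (RIN) of 7.4 to 8.6 and the 6 with breeding numbers from 225 (4 WT and 2 Pparg-/-epi) had 5.7 to 7.1, so breeding number and RNA integrity cannot be told apart here.

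The sequences just upstream of Lgr6, Lrig1 and Plet1, the 3 upper follicle genes, are shown because these had the smallest adjusted p-values of the 10. Each is the 250 bases before the annotated start, 5′ to 3′ on the gene's strand, from RefSeq (GRCm38.p6, the build also called mm10). Capitals mark a PPAR/RXR half-site (AGGTCA on either strand) or a TCF/LEF core (CTTTGA or CTTTGT on either strand). The Lgr6 stretch lies at chr1:135105277-135105526 (minus strand), the Lrig1 stretch at chr6:94700146-94700395 (minus strand) and the Plet1 stretch at chr9:50494275-50494524 (plus strand).
Lgr6: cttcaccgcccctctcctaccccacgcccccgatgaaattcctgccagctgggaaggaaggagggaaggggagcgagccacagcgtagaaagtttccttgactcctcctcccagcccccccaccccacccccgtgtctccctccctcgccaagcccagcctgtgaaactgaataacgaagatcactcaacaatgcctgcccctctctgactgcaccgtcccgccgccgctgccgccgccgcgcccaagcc
Lrig1: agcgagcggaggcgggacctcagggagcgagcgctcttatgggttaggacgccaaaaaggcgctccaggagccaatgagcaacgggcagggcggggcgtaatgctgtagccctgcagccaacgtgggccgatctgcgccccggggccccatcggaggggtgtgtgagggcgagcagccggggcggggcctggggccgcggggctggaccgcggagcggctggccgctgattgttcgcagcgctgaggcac
Plet1: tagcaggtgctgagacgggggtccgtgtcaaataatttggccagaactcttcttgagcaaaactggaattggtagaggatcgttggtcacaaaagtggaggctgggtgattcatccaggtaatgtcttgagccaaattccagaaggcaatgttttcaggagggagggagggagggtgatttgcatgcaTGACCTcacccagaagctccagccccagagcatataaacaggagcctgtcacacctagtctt
The Plet1 stretch held 1 PPAR/RXR half-site on the opposite strand, printed as TGACCT, and no TCF/LEF core. The Lgr6 and Lrig1 stretches held neither motif. Of 32851 mouse promoters of the same length, 14.0% held the half-site and 27.6% a TCF/LEF core. Upstream stretches of 7 of the 10 genes were available, and a TCF/LEF core was found in that of Tcf7l1 and in 1 of 2 for Tcf7l2. These matches describe letters and were not tied to the expression values.

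Of the 10 genes 1, Lgr6, was altered, and it was lower in Pparg-/-epi skin. Of all genes tested, 10.3% were altered, 5.08% being lower and 5.19% higher. The median log2 fold change of the 10 genes was 0.45, beside -0.011 over all genes. Among the 10, 7 had a positive fitted change, but none of these was called by the quasi-likelihood test with all 12 mice and genotype only. Other fits of all 12 mice called Plet1 higher, and DESeq2 also called Lrig1, as given below. The plot of levels by mouse shows each value behind these counts.

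**Figure D1:**
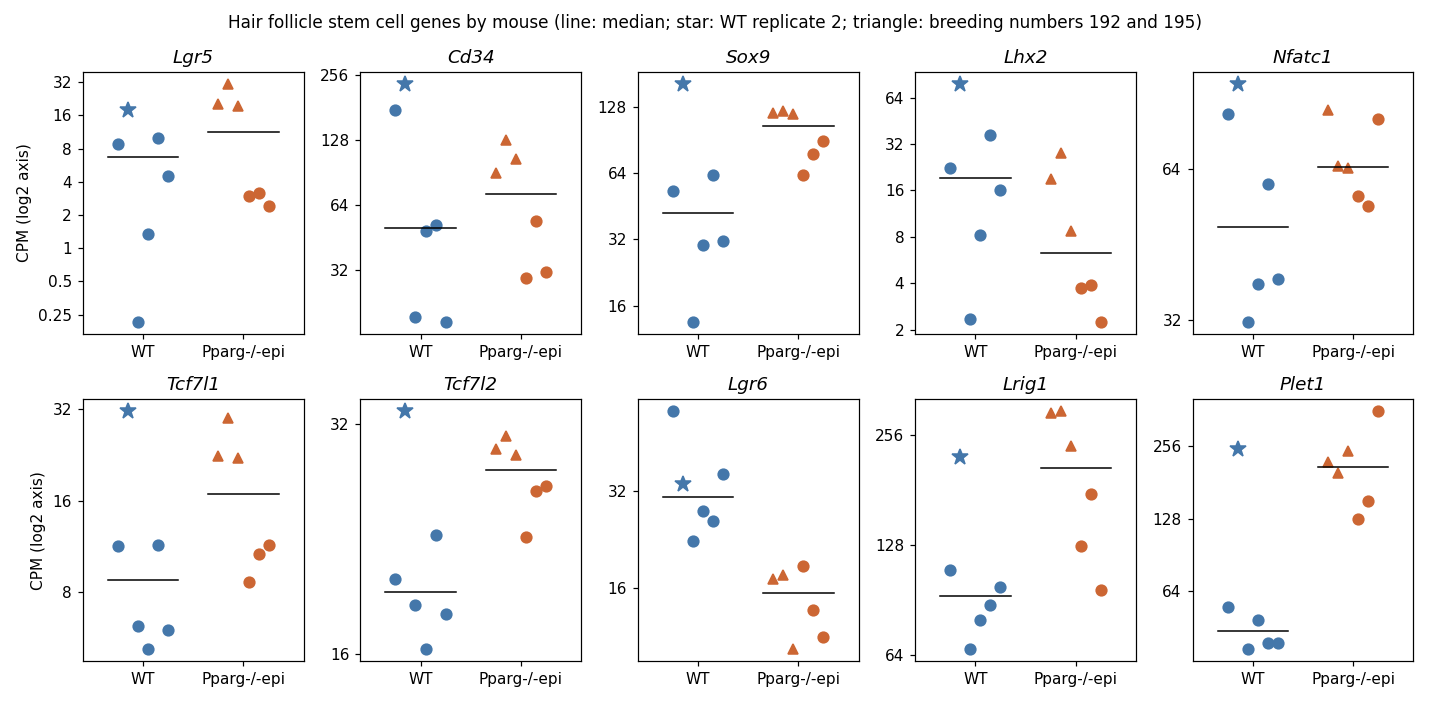
Level of each of the 10 genes in CPM (log2 axis) in the 6 WT and 6 Pparg-/-epi mice, 1 point per mouse with the group median as a line; the star is WT replicate 2 and triangles are the 3 Pparg-/-epi mice of breeding numbers 192 and 195. Lgr6 is the only panel in which the genotypes do not overlap, at 22.4 to 56.4 CPM in WT mice and 10.3 to 18.7 CPM in Pparg-/-epi mice.

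Of the 3 upper follicle genes, 1 passed with all mice by the quasi-likelihood test with genotype only. The other 2 changed their call when WT replicate 2 was left out. With all mice kept, their call also changed with the test (both genes) or with an added term (Plet1). Lgr6 (chr1:134986353-135105276, minus strand) measured 56.4, 33.4, 22.4, 27.7, 25.8 and 35.9 CPM in WT replicates 1 to 6. Its Pparg-/-epi values, replicates 7 to 12, were 17.1, 17.5, 10.3, 18.7, 13.7 and 11.3 CPM. Every Pparg-/-epi mouse was below every WT mouse, a separation found for 7.9% of all genes. Means were 33.6 ± 12.2 CPM for WT and 14.7 ± 3.52 CPM for Pparg-/-epi mice (SD, n = 6 each), a 2.28-fold lower fitted level (log2 fold change -1.19 ± 0.23 SE, adjusted p = 0.00477 by edgeR). The exact two-sided permutation test gave p = 0.00216, the smallest that 6 against 6 mice allow. In bulk skin, fewer cells of a type and less RNA per cell cannot be told apart. The scrapings also hold interfollicular epidermis, and which cells held the Lgr6 RNA was not measured. Lgr6 stayed called in all 12 fits that left out 1 mouse, with log2 fold changes of -1.28 to -0.99. With the 3 Pparg-/-epi mice of breeding numbers 192 and 195 left out, which leaves 6 mice against 3, its log2 fold change was -1.23 with an adjusted p of 0.0504 (edgeR). That fit altered 3.85% of all genes and none of the 10.

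Plet1 (chr9:50494525-50505639, plus strand), which encodes a glycosylphosphatidylinositol-anchored surface protein of the follicle isthmus, measured 55.0, 249, 36.4, 48.1, 39.0 and 38.8 CPM in WT replicates 1 to 6. Replicates 7 to 12, the Pparg-/-epi mice, had 220, 198, 244, 127, 151 and 359 CPM. All WT mice but replicate 2 were below all Pparg-/-epi mice, and that mouse was above all but 1 of them. With all mice the log2 fold change was 1.47 ± 0.49 SE (adjusted p = 0.0618, edgeR quasi-likelihood), which did not pass. The likelihood ratio test, the test the study used, gave an adjusted p of 0.0193 and called it, beside 11.8% of all genes. DESeq2 called it too (adjusted p = 0.0278), together with Lrig1 (adjusted p = 0.0354), beside 12.3% of all genes. Among the 7 females alone, whose 3 WT mice included replicate 2, Plet1 was at 0.87 ± 0.61 SE (adjusted p = 0.446, edgeR). That fit altered 4.48% of all genes. With WT replicate 2 left out, the fitted change was 2.30 ± 0.24 SE (adjusted p = 9.78e-05, edgeR), the WT mean was 43.5 ± 7.86 CPM (SD, n = 5), and the genotypes no longer overlapped.

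Lrig1 (chr6:94604529-94700145, minus strand), which encodes a transmembrane brake on ERBB receptors, measured 109, 223, 66.4, 80.1, 87.7 and 98.2 CPM in WT replicates 1 to 6. In Pparg-/-epi replicates 7 to 12 it measured 295, 298, 239, 128, 177 and 96.7 CPM. The 3 Pparg-/-epi mice of breeding numbers 192 and 195 exceeded every WT mouse, while the other 3 Pparg-/-epi mice lay inside the WT range. The log2 fold change was 0.89 ± 0.34 SE (adjusted p = 0.0938, edgeR quasi-likelihood) with all mice. It was 1.21 ± 0.28 SE (adjusted p = 0.00969) without WT replicate 2, and 0.25 ± 0.36 SE (adjusted p = 0.755) without the 3 Pparg-/-epi mice of breeding numbers 192 and 195. Exons of Lrig1 overlap those of Slc25a26 on the other strand, and whether counting used strand is not given in the sources used here. Slc25a26 measured 5.63 ± 0.49 CPM (WT) and 4.85 ± 0.87 CPM (Pparg-/-epi; SD, n = 6 each).

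The bulge markers proper were not called in either direction. Cd34, the sialomucin used to sort mouse bulge cells and also present on blood vessel endothelium, measured 177, 234, 19.4, 48.5, 51.9 and 18.3 CPM in WT replicates 1 to 6. Its Pparg-/-epi values, replicates 7 to 12, were 90.6, 129, 105, 29.5, 53.8 and 31.3 CPM. The WT values enclosed the Pparg-/-epi values at both ends, a 12.8-fold range among WT mice against 4.36-fold among Pparg-/-epi mice. The log2 fold change was -0.32 ± 0.63 SE (95% interval -1.68 to 1.04, adjusted p = 0.783, edgeR), and it turned to 0.21 ± 0.59 SE without WT replicate 2.

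Lgr5, the R-spondin receptor of the lower bulge and hair germ, had the lowest level per kilobase of the 10 in both genotypes. It measured 8.88, 18.1, 0.213, 1.34, 10.0 and 4.53 CPM in WT replicates 1 to 6, and the lowest of these was 2 counts. Replicates 7 to 12, the Pparg-/-epi mice, had 20.5, 31.0, 19.3, 2.99, 3.16 and 2.40 CPM. The Pparg-/-epi mice fell into a high set of 3 and a low set of 3 that differed 8.27-fold in mean, and the low set lay within the WT range. The log2 fold change of 0.88 ± 0.83 SE (95% interval -0.93 to 2.68, adjusted p = 0.534, edgeR) went to -0.0046 ± 0.67 SE with breeding number as a block, a fit that altered 9.32% of all genes.

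Sox9, a transcription factor needed to set aside the early bulge, measured 53, 164, 13.4, 30.3, 63.2 and 31.6 CPM in WT replicates 1 to 6. In Pparg-/-epi replicates 7 to 12 it measured 121, 123, 120, 62.6, 78.4 and 90.2 CPM. The Pparg-/-epi mice sat close together, within a 1.96-fold range, while WT mice spanned 12.2-fold. With all mice the log2 fold change was 0.74 ± 0.47 SE (adjusted p = 0.321, edgeR), and without WT replicate 2 it was 1.36 ± 0.33 SE (adjusted p = 0.012), with 5 of 6 Pparg-/-epi mice above the 5 remaining WT mice.

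Lhx2, a LIM-homeodomain factor that holds follicle stem cells undifferentiated, measured 22.2, 78.8, 2.34, 8.27, 36.5 and 16.1 CPM in WT replicates 1 to 6. Its Pparg-/-epi values, replicates 7 to 12, were 19.1, 28.1, 8.72, 3.74, 3.89 and 2.23 CPM. Its fitted change was the most negative of the 10 but rested on widely spread values, at -1.31 ± 0.77 SE on the log2 scale (95% interval -2.97 to 0.35, adjusted p = 0.283, edgeR). It kept that sign in the other fits run and passed in none of them.

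Nfatc1, a calcineurin-dependent factor that keeps bulge cells quiescent, ranged from 31.6 to 94.4 CPM in WT (median 49.1) and from 54.0 to 83.6 CPM in Pparg-/-epi (median 64.5). Its log2 fold change of 0.23 ± 0.26 SE (95% interval -0.33 to 0.79, adjusted p = 0.614, edgeR) had the narrowest interval among the bulge markers after Tcf7l2.

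The pair of TCF factors moved alike from mouse to mouse. Tcf7l1, mainly a repressor of WNT target genes in bulge cells, measured 11.3, 31.5, 6.18, 5.18, 11.5 and 5.98 CPM in WT replicates 1 to 6. Replicates 7 to 12, the Pparg-/-epi mice, had 22.4, 29.8, 22.2, 8.65, 10.7 and 11.4 CPM. The 3 Pparg-/-epi mice of breeding numbers 192 and 195 were above all WT mice other than replicate 2, and the remaining 3 lay within the WT values. The log2 fold change was 0.55 ± 0.46 SE (adjusted p = 0.474, edgeR) with all mice and 1.12 ± 0.36 SE (adjusted p = 0.0401) without WT replicate 2. Tcf7l2 (TCF4) ranged from 16.2 to 33.3 CPM in WT (median 19.3) and from 22.8 to 30.9 CPM in Pparg-/-epi (median 27.9). Its log2 fold change of 0.36 ± 0.16 SE had an adjusted p of 0.168 (edgeR). Without WT replicate 2 it was 0.51 ± 0.11 SE with an adjusted p of 0.00791, still under the fold threshold.

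**Figure D2:**
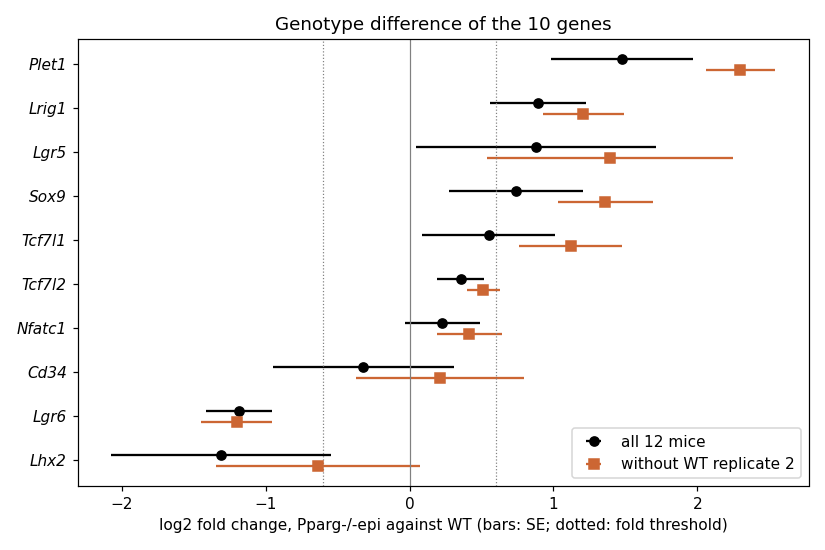
Log2 fold change of Pparg-/-epi against WT for each of the 10 genes with all 12 mice (black circles) and without WT replicate 2 (orange squares); bars are 1 SE and dotted lines the fold threshold of 0.6. Lgr6 keeps its place at -1.19 and -1.20, while Plet1 moves from 1.47 to 2.30 and Cd34 from -0.32 to 0.21.

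Across all genes, leaving out WT replicate 2 raised the share altered from 10.3% to 15.5%. Among the 10 genes the number altered rose from 1 to 5 (Lgr6 lower, and Plet1, Lrig1, Sox9 and Tcf7l1 higher). WT replicate 2 drew notice by its high values of these same genes. Leaving it out lowers the WT level and raises their fitted change, so the higher calls give no separate support for a rise. No other fit that left out 1 mouse called any of the 10 higher. With WT replicate 2 left out and breeding number as a block, Plet1 at 2.32 ± 0.26 SE, Sox9 at 1.16 ± 0.34 SE and Lgr6 at -1.45 ± 0.20 SE were called (adjusted p = 0.00026, 0.0432 and 0.00107, edgeR), beside 10.5% of all genes, while Lrig1 (0.86 ± 0.27 SE, adjusted p = 0.0527) and Tcf7l1 (0.70 ± 0.34 SE, adjusted p = 0.197) lost their calls. The fit that joined the block to the missing mouse was added after the values had been seen.

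Per kilobase of exon, which allows genes to be compared, the order in WT ran from Plet1 (42.1 ± 45.7 CPM per kb, SD, n = 6) and Cd34 (34.9 ± 34.8) through Lrig1 (22.3 ± 11.5), Sox9 (14.3 ± 13.1), Lhx2 (9.70 ± 9.86), Lgr6 (9.28 ± 3.38) and Nfatc1 (7.71 ± 3.51) to Tcf7l2 (4.73 ± 1.36), Tcf7l1 (4.14 ± 3.46) and Lgr5 (1.53 ± 1.41). Each gene in that order differed from the next by less than the larger SD of the pair. In Pparg-/-epi skin Plet1 (117 ± 44.4 CPM per kb) stood above Lrig1 (41.4 ± 17.2), Cd34 (27.9 ± 15.7) and Sox9 (23.9 ± 6.22). Lgr6 (4.07 ± 0.97), Lhx2 (3.89 ± 3.70) and Lgr5 (2.81 ± 2.56) were then the 3 lowest.

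Several of the genes differed between breeding number sets among the Pparg-/-epi mice. Among Pparg-/-epi mice, the 3 of breeding numbers 192 and 195, all female, were above the 3 of breeding numbers 222 and 225 for 7 of the 10 genes without overlap: Cd34 (2.83-fold in mean), Lgr5 (8.27-fold), Sox9 (1.57-fold), Lhx2 (5.67-fold), Tcf7l1 (2.42-fold), Tcf7l2 (1.19-fold) and Lrig1 (2.07-fold). Lgr6 (1.03-fold), Plet1 (1.04-fold) and Nfatc1 (1.12-fold) overlapped between these sets. Of all genes, 23.2% lay higher in the first set without overlap. The first set also differed from the second in labelled age (12 to 13 against 8 to 12 weeks) and RIN (7.7 to 8.6 against 5.7 to 7.7). Breeding number, sex, age and RIN thus cannot be told apart in this comparison. The fit that follows splits the mice elsewhere, placing Pparg-/-epi replicate 10 (breeding number 222) with those of 192 and 195. In a fit with genotype and breeding number (up to 222 against from 225) over all mice, 3 of the 10 genes passed for breeding number, namely Cd34 (log2 difference 1.82 ± 0.42 SE, adjusted p = 0.0326, edgeR), Tcf7l1 (1.25 ± 0.34 SE, adjusted p = 0.0418) and Lrig1 (0.91 ± 0.25 SE, adjusted p = 0.0422). Of all genes, 11.3% passed for that term. With RIN in its place the same 3 genes passed, beside 13.1% of all genes, at log2 differences per RIN unit of 0.75 ± 0.23 SE for Cd34, 0.58 ± 0.15 SE for Tcf7l1 and 0.40 ± 0.11 SE for Lrig1 (adjusted p = 0.0491, 0.0399 and 0.0459). No gene of the 14533 passed for a genotype by sex interaction in edgeR, where 741 had an unadjusted p under 0.05, and none of the 10 was among those.

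The R-spondin receptors were set beside a list of their ligands, relatives and WNT co-receptors, of which 11 were measured. Of the 11, 1 was altered with all mice, the ligand Rspo3, and it was lower. The share of all genes altered was 10.3% with all mice and 15.5% without WT replicate 2. Without WT replicate 2, Rspo3 (-2.63 ± 0.21 SE) was still called and 2 genes were higher, Rspo4 (1.72 ± 0.43 SE, adjusted p = 0.013, edgeR) and Fzd7 (1.44 ± 0.37 SE, adjusted p = 0.0156). Rspo3 measured 18.2, 9.45, 30.5, 21.9, 20.6 and 22.0 CPM in WT replicates 1 to 6, and 3.02, 3.27, 2.60, 5.41, 3.62 and 4.38 CPM in Pparg-/-epi replicates 7 to 12. The groups did not overlap, with a log2 fold change of -2.46 ± 0.27 SE (adjusted p = 0.000206, edgeR). The third receptor of the family, Lgr4, had 67.3 ± 18.8 CPM (WT) and 54.6 ± 11.7 CPM (Pparg-/-epi; SD, n = 6 each; log2 fold change -0.30 ± 0.18 SE, adjusted p = 0.288). Rspo1 (log2 fold change 0.0064 ± 0.36 SE) and Rspo4 (1.25 ± 0.48 SE, adjusted p = 0.0966) did not pass with all mice, nor did Znrf3 (-0.32 ± 0.13 SE, adjusted p = 0.106) and Rnf43 (-0.34 ± 0.13 SE, adjusted p = 0.109), which encode the receptor-clearing ligases that R-spondins block. The median log2 fold change of the 11 was -0.0070.

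Upper follicle genes other than the 3 already described were altered in 6 of 11 cases, all higher, with a median log2 fold change of 1.31. Of all genes, 5.19% were altered and higher. Without WT replicate 2 it was 9 of 11, all higher, with a median of 2.08, beside 15.5% of all genes altered in either direction. Krt79, a keratin of the infundibulum and sebaceous duct, rose by a log2 fold change of 2.70 ± 0.67 SE (adjusted p = 0.0168, edgeR), from 45.7 to 1335 CPM in WT to 1850 to 3513 CPM in Pparg-/-epi. Gata6, a transcription factor of sebaceous duct cells, rose by 1.89 ± 0.59 SE (adjusted p = 0.046), and the defensin gene Defb6 by 2.51 ± 0.57 SE (adjusted p = 0.0109). Krt17, Aldh3a1 and Atp6v1c2 were the other 3. The list was chosen with earlier results of these data known, so its counts beside the share of all genes are a description only. Not all of the list is particular to the upper follicle. The study places Krt17 among keratins raised in wound healing and psoriasis, and Defb6 among antimicrobial peptides of the epidermal barrier. Summed over the list, WT replicate 2 had 7213 CPM, the other WT mice 1908 to 3125 CPM and the Pparg-/-epi mice 7619 to 11737 CPM. After group means were removed, Plet1 followed this sum with r = 0.92 over 12 mice (0.91 without the 2 mice farthest from its median), Lrig1 with r = 0.71 and Lgr6 with r = 0.16.

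**Figure D3:**
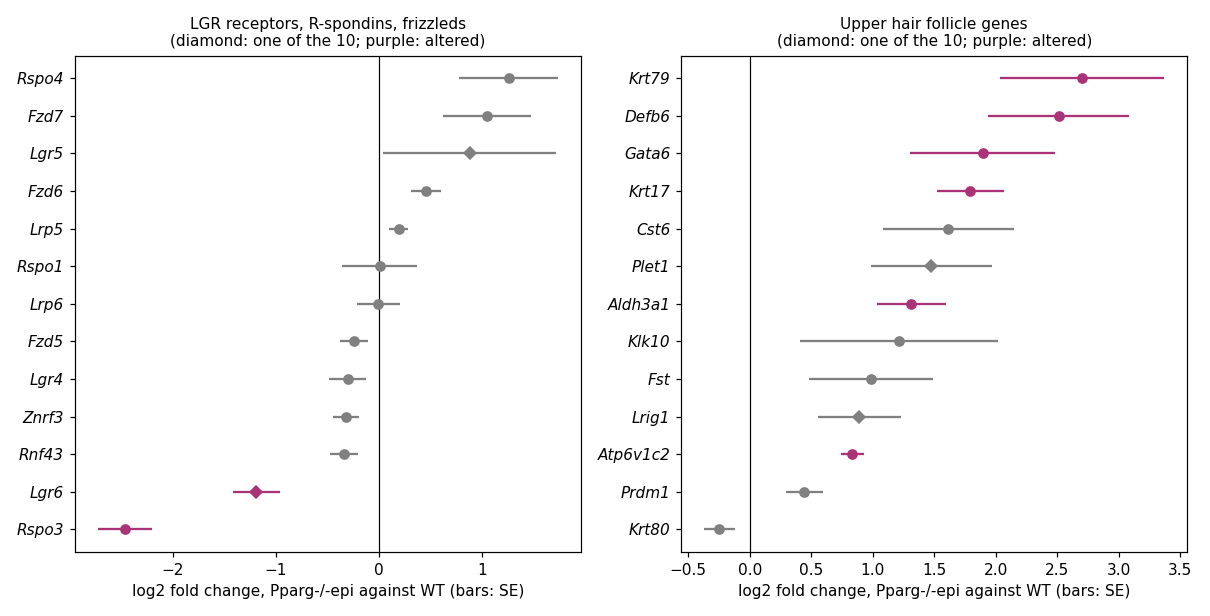
Log2 fold change (bars: SE) of the receptors Lgr5 and Lgr6 with the R-spondin and WNT receptor list (left) and of Lrig1 and Plet1 with the upper follicle list (right); diamonds are members of the 10 and purple marks altered genes. Rspo3 at -2.46 and Lgr6 at -1.19 are the altered genes on the left, and the 6 altered on the right are all higher.

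Of 29 further bulge and hair germ genes measured, 4 were higher and 3 lower, with a median log2 fold change of -0.00074. Of all genes, 5.19% were higher and 5.08% lower. Without WT replicate 2, 7 were higher and 3 lower, beside 15.5% of all genes altered in either direction. The higher ones were Runx1 (1.86 ± 0.42 SE, adjusted p = 0.0109, edgeR), Postn (2.00 ± 0.51 SE), Vdr (1.01 ± 0.23 SE) and Cdh3 (0.69 ± 0.16 SE). The lower ones were Krt15 (-1.74 ± 0.26 SE, adjusted p = 0.00106), Fgf18 (-3.96 ± 0.56 SE) and Angptl7 (-3.18 ± 0.90 SE). Krt15, a keratin that marks bulge cells and is also made in basal interfollicular epidermis, measured 2058 to 4407 CPM in WT mice and 600 to 1423 CPM in Pparg-/-epi mice, without overlap. Cd200, a surface protein of bulge cells, was not called (0.98 ± 0.35 SE, adjusted p = 0.0773).

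Partners of the other factors among the 10 were mostly not called. Of all genes, 10.3% were altered with all mice (5.19% higher, 5.08% lower) and 15.5% without WT replicate 2. None of 13 TCF partners was altered with all mice, and without WT replicate 2 the co-repressor genes Tle1 (1.17 ± 0.24 SE, adjusted p = 0.00458, edgeR) and Tle2 (0.92 ± 0.19 SE, adjusted p = 0.00523) were higher. With all mice Tle3, also of this Groucho family, came nearest with 0.39 ± 0.08 SE (adjusted p = 0.00521, edgeR), under the fold threshold, and Ctnnb1 (β-catenin) was at 0.29 ± 0.12 SE (adjusted p = 0.113). None of 5 genes for LRIG and ERBB proteins was altered, Egfr being at -0.10 ± 0.12 SE (adjusted p = 0.61). Of 5 partners of LIM-homeodomain proteins, Lmo4 was lower (-0.98 ± 0.24 SE, adjusted p = 0.0171). Of 12 genes of the calcineurin and NFATC1 axis, Bmp4, which acts upstream of Nfatc1 in bulge cells, was lower (-1.12 ± 0.22 SE, adjusted p = 0.0052). Of 9 other Sox genes measured, Sox7 (2.46 ± 0.54 SE, adjusted p = 0.00876) and Sox15 (1.24 ± 0.24 SE, adjusted p = 0.00435) were higher.

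Markers of cells other than follicle epithelium varied along with several of the 10 genes. The summed level of 10 endothelial genes was 112, 189, 17.9, 26.1, 53.6 and 12.3 CPM in WT replicates 1 to 6, and 230, 290, 234, 55.9, 115 and 68.4 CPM in Pparg-/-epi replicates 7 to 12. Of the 10 endothelial genes 1, Emcn, was altered (higher), beside 10.3% of all genes altered, and no endothelial gene was at 0 in any mouse. Their median log2 fold change was 1.14. Without WT replicate 2 it was 1.91 with 4 of the 10 higher (Emcn, Tek, Vwf and Plvap), beside 15.5% of all genes altered. After group means were removed Cd34 followed this sum with r = 0.98 over 12 mice, and with r = 0.96 without the 2 mice farthest from its median. Most of the other genes followed it too, with r of 0.91 for Tcf7l1, 0.83 for Sox9, 0.82 for Lrig1 and Lgr5, 0.81 for Tcf7l2, 0.80 for Lhx2, 0.79 for Nfatc1 and 0.61 for Plet1, and Lgr6 had the lowest r, 0.31. The endothelial list was not alone in this. The summed arrector smooth muscle list had r of 0.93 for Cd34 and 0.83 for Tcf7l1, and the dermal papilla list 0.88 for Lrig1. The suprabasal epidermis list ran the other way, at -0.85 for Tcf7l1 and -0.81 for Lrig1. The mast cell list had r from -0.54 for Lgr6 and -0.50 for Lgr5, through -0.16 for Tcf7l1 and -0.15 for Cd34, to 0.13 for Plet1. The part of endothelial RNA, or of scraping depth, in these values was not tested. The summed level of 20 genes of the growing hair matrix and shaft ranged from 55.4 to 2369 CPM in WT mice and from 213 to 5055 CPM in Pparg-/-epi mice, with WT replicate 2 and Pparg-/-epi replicate 8 highest in their groups. None of those 20 genes was altered with all mice, at a median log2 fold change of 1.19. Without WT replicate 2, 2 of them (Krt72 and Tchh) were higher and the median was 2.30. The part of hair cycle stage in the values of the 10 genes was not tested.

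**Figure D4:**
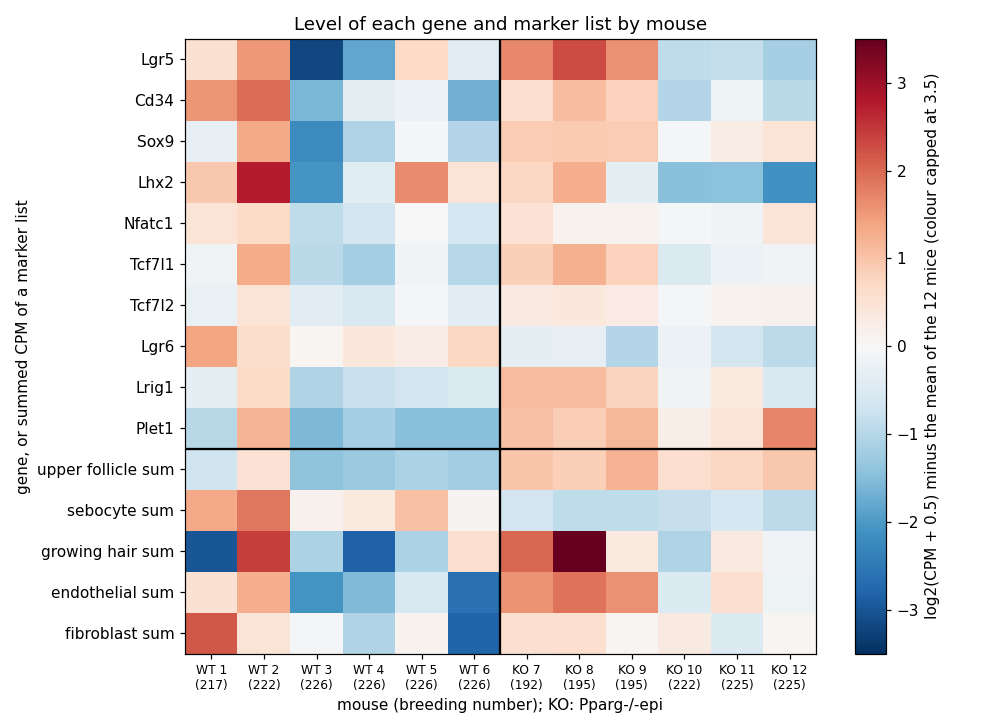
Level of each of the 10 genes and summed CPM of 5 marker lists by mouse, as log2(CPM + 0.5) minus the mean of the 12 mice, with mice ordered by breeding number within genotype. WT replicate 2 and Pparg-/-epi replicates 7 to 9 are high for Lgr5, Cd34 and the endothelial sum (189 CPM in WT replicate 2 and 230 to 290 CPM in replicates 7 to 9), and the sebocyte sum is higher in every WT mouse than in any Pparg-/-epi mouse. For Cd34, WT replicate 1 (177 CPM) is also above replicates 7 to 9.

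Within genotype, pairs that included Lgr6 had lower correlations on the median than the other pairs. With group means removed, Pearson's r over 12 mice had a median of 0.77 for the 36 pairs without Lgr6 (0.43 to 0.97) and 0.34 for the 9 pairs with it (-0.02 to 0.42). Median Spearman's rho was 0.77 and 0.30. Among WT mice alone (n = 6) the medians of r were 0.83 and 0.42, and the 2 sets of pairs overlapped, the highest with Lgr6 being 0.60 (Nfatc1) and the lowest without it 0.60 (Lgr5 with Plet1). Without the 2 mice farthest from the median of the first gene of a pair, the medians were 0.73 and 0.085, and the sets overlapped widely, at 0.16 to 0.96 without Lgr6 and -0.12 to 0.62 with it. Lgr6 with Lrig1 (0.62) was then above Cd34 with Plet1 (0.16), Cd34 with Nfatc1 (0.36) and Sox9 with Plet1 (0.37). The closest pairs were Lgr5 with Lhx2 (r = 0.97, rho = 0.98) and Tcf7l1 with Tcf7l2 (r = 0.94, rho = 0.97). Values of one mouse share a library and a scraping depth, and the Pparg-/-epi mice fell into sets by breeding number, so these figures are a description only.

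**Figure D5:**
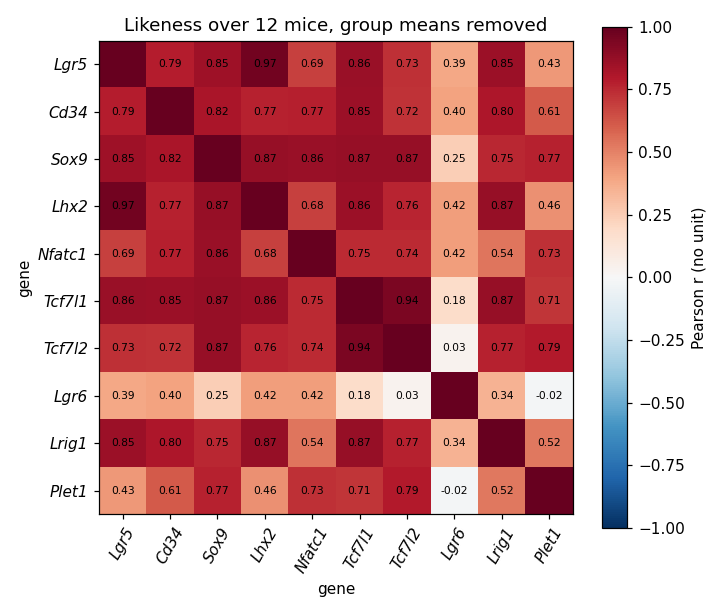
Pearson's r (no unit) between each pair of the 10 genes over 12 mice, computed on log2(CPM + 0.5) after the mean of each genotype was subtracted. Pairs with Lgr6 lie between -0.02 and 0.42 and the other pairs between 0.43 and 0.97, ranges that nearly touch and that overlapped when 2 mice were left out.

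Among 13800 genes with a mean of at least 1 CPM, the gene most like Cd34 was Podxl (r = 0.99, rho = 0.99), a sialomucin of the same family, followed by Pid1 and the endothelial receptor gene Cd93. Those most like Lgr5 were Col8a2 (r = 0.98, rho = 0.98), Ppp1r26 and Adamts7, and Col8a2 also came first for Lhx2 (r = 0.98, rho = 1), ahead of Tbx1 and Steap4. Sox9 was most like Foxc1 (r = 0.98, rho = 0.91), itself a bulge transcription factor, then Igfbp4 and Pcdh19. Plet1 was most like Aldh3a2 (r = 0.98, rho = 0.95), Klk10 and Kcnk5, and Lrig1 most like Tril (r = 0.98, rho = 0.99), Pacs1 and Adamts18. Tcf7l1 was most like the extracellular matrix gene Tnc (r = 0.99, rho = 0.95), Ntn4 and Nek6, Tcf7l2 most like Pxn (r = 0.96, rho = 0.95), Unc5b and Serinc2, and Nfatc1 most like Ddr2 (r = 0.95, rho = 0.90), Shf and Fam171a2. The nearest gene to Lgr6 was Slc24a2 (r = 0.89, rho = 0.83), ahead of 2700049A03Rik and Cdca8, so no gene followed Lgr6 as closely as the nearest genes of the other 9 followed theirs.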

How the data were processed

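RNA was sequenced (paired reads of 75 bases) from dorsal epidermal scrapings of 6 WT and 6 Pparg-/-epi mice. The authors aligned reads with STAR 2.5.2b to mm10/refGene, removed multimapped reads, and deposited raw read counts per gene made with featureCounts (Subread 1.5.1). The deposited count table, which its makers had filtered, had 17333 rows, of which 2800 were blank and were dropped. Its gene length column gave CPM per kb. Groups came from the sample labels. Counts were fitted with edgeR 4.0.16 (TMM, quasi-likelihood, genotype only, Benjamini-Hochberg over 14533 genes), in place of the study's likelihood ratio test, which was run as an alternative with DESeq2 1.42.0. The code was tested on simulated data. Exact permutation tests used log2(CPM + 0.5) and were not adjusted. Replicates were separate mice. At these depths 1 count was 0.0530 to 0.0988 CPM.

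The 10 genes and the lists beside them were chosen with earlier results of these data known. Named genes were the 10, list genes where described, and for each of the 10 the 3 genes most like it. Stretches of 75 bases shared with transcripts of other genes (GENCODE vM21) made up 0 to 0.327% of each gene's. Alternatives were size factors, total counts, a filter of 10 counts in 6 libraries, each mouse left out, females only, and sex, age, RIN or breeding number as terms. Added after the values were seen were the fits without WT replicate 2 with a breeding number block and without breeding numbers 192 and 195.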

Additional observations from a re-analysis of the deposited data

Results flagged for a closer look

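Within the WT group, 4 of the 10 genes had 1 mouse far above the rest by Dixon's gap test on CPM (20 groups of 6 tested, of which chance flags about 1 in 20), and in each case it was WT replicate 2. The genes varied together and every flag is from that 1 mouse, so the flags are not separate events. The chance rate is therefore no yardstick for them, and the share of all genes so flagged was not counted. Plet1 was at 249 CPM in that mouse, with the next WT mouse at 55.0. Lrig1 was at 223 CPM, with the next at 109. Sox9 was at 164 CPM, with the next at 63.2. Tcf7l1 was at 31.5 CPM, with the next at 11.5. That library also had the highest WT sums of the sebocyte (3193 CPM), endothelial (189 CPM), growing hair (2369 CPM) and upper follicle (7213 CPM) lists. Its sums of the suprabasal (17777 CPM) and basal (8376 CPM) epidermis lists were the lowest in WT. The next lowest, in WT replicate 4, were 40502 and 9265 CPM.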

How the results depend on the processing

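Lgr6 was lower and altered in 23 of 24 alternative fits (log2 fold change -1.45 to -0.99, adjusted p up to 0.0504), the exception being the fit without Pparg-/-epi mice of breeding numbers 192 and 195. In that fit 0 of the 10 genes were altered (0 lower), as were 7 of the 94 genes of the 8 neighbor lists and 559 of all genes, beside 1, 18 and 1493 with all mice. Leaving out 1 mouse at a time gave 1 to 5 altered of the 10 (0 to 4 higher), 16 to 29 neighbor genes, 1116 to 2249 genes in all, and 1 to 2 of the 10 without overlap, each highest value without WT replicate 2. The number altered of the 10 was 2 (1 higher) with the likelihood ratio test and with age, RIN or breeding number as a term, 3 (2 higher) with DESeq2, and 3 (2 higher) without WT replicate 2 with a breeding number block. Plet1 was among the genes added in each of these, Lrig1 with DESeq2 and Sox9 in the last. Females alone gave 6 neighbor genes and 651 genes in all. Exact p-values fell under 0.05 for 4 of the 10 with TMM and for 2 with total counts, Lrig1 and Tcf7l2 being lost (0.0563 and 0.0866). The fitted change of Cd34, which was -0.58 to 0.21 with 1 mouse left out at a time, turned to 0.21 without WT replicate 2 and to 0.23 with age (as labelled) as a term, that of Lgr5 to -0.0046 with the breeding number block and to -1.36 without breeding numbers 192 and 195, and that of Tcf7l1 to -0.25 in the latter. The cause was not tested. No paired analysis was possible because WT and Pparg-/-epi mice share no replicate number and only 1 breeding number, 222, with 1 mouse of each genotype. The block above joined breeding numbers into 2 sets. When the 2 mice farthest from the median were left out, r moved by under 0.2 for 35 of the 45 pairs of genes and by more for 10. Precision was lowest for Lgr5, Lhx2 and Cd34, whose SEs were 0.63 to 0.83.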
